A study of Mus musculus with 23 samples.

Results

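The 10 genes described here are those of haem breakdown (Hmox1, Blvra and Blvrb), quinone reduction (Nqo1), iron storage (Fth1 and Ftl1) and the NRF2 switch that controls several of them (Nfe2l2, Keap1, Sqstm1 and Mafg). They were chosen by name, with earlier results of these data known. Every non-control probe whose RefSeq transcript belongs to 1 of them was taken. This gave 14 of 55681 non-control probes and 10 of 20145 named genes. Mafg had 3 probes, Hmox1 and Blvra had 2 each, and the others had 1 each. All 322 probe values of these genes lay above background, none was saturated or marked as an outlier, and all 10 genes entered the test in every comparison.

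Gene expression was measured on 1-colour Agilent mouse arrays in TM4, an immortalized line of mouse Sertoli cells, the somatic cells that nurse germ cells in the testis. Cultures received MEHP, DINCH, DOM, BDB or DOS at 100 μM for 48 hours in 1% DMSO, or 1% DMSO alone. MEHP is a monoester made in the body from the phthalate plasticizer DEHP, DINCH is a commercial cyclohexane dicarboxylate plasticizer, and BDB is a dibenzoate of butanediol. DOM, dioctyl maleate, and DOS, dioctyl succinate, are diesters that differ in the carbon double bond of the maleate. Each group had 4 arrays except DOS with 3, the labels call the replicates biological, and the model is a single line of cells in culture. The Sertoli cell markers Sox9, Gata4, Inhbb, Dmrt1, Kitl and Nr5a1 were above background on all 4 DMSO arrays, whereas Wt1, Fshr and Cldn11 were above it on none of the 23 arrays. The germ cell genes Ddx4 and Dazl were above background on no array. Of the 4 Leydig cell markers on the array, Star was above it on 3 DMSO arrays and on 12 of all 23. Cyp11a1, Hsd3b1 and Lhcgr were above it on none. Of the smooth muscle genes, Acta2 and Cnn1 were above it on all 23, Des on 4 and Myh11 on 0. Of the macrophage genes on the array, Csf1r was above it on all 23 and Ptprc and Adgre1 on 0.

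Arrays give no read counts, and precision here rests on how many of them there were. The 75th percentile of the processed signal ranged from 204.6 to 350.7, and 43.4% to 52.2% of spots on an array were well above background. On 15 of the 23 arrays every quality measure of the extraction software was in range, and these are called in-range arrays below. DOM and DOS shared the slide rows of DMSO, and MEHP, DINCH and BDB lay on other rows, so for these 3 compounds the row cannot be told apart from the comparison with DMSO. The same holds between compounds, for DOM or DOS against MEHP, DINCH or BDB. A level below is the log2 of the processed signal relative to the 75th percentile of its array. A difference of 1 in level is therefore a 2-fold difference in signal. Levels are compared only within a gene, because probes differ in brightness. In RNA from whole cultures, fewer cells with a transcript and less transcript per cell cannot be told apart.

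Nuclear factor erythroid 2-related factor 2, NRF2, is the transcription factor that Nfe2l2 encodes. In unstressed cells KEAP1 binds it and passes it to a ubiquitin ligase for degradation. Electrophiles and oxidants modify cysteines of KEAP1, NRF2 then accumulates, pairs with a small MAF protein such as MAFG and binds antioxidant response elements beside its targets. Haem oxygenase 1 (Hmox1) opens the haem ring and releases iron, carbon monoxide and biliverdin, which the biliverdin reductases reduce to bilirubin. The freed iron is stored in ferritin, a shell of heavy (Fth1) and light (Ftl1) chains. NRF2 is set mainly through protein stability, which an array of transcripts does not measure.

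The antioxidant response element has the core TGACNNNGC. This core was searched on both strands of RefSeq promoter windows of 300 bases, 250 before and 50 after each start, on build GRCm38.p6. Of the 10 genes, 9 had a window and 3 of these held the core, namely Blvra, Nfe2l2 and Mafg. Over all windows it was present in 4071 of 32851 promoters, or 12.4%. In Blvra it lay at -49 to -41 and in Mafg at -222 to -214 from the start, both on the opposite strand. A match is only a run of letters, and elements farther from the start are outside these windows. Hmox1 had no entry. The 250 bases before the start are shown for Nqo1 and Blvrb, which rose with DOM, and for Nfe2l2, and capitals mark the core. Each reads 5′ to 3′ on the strand of its gene.
Nqo1, chr8:107403206-107403455, minus strand: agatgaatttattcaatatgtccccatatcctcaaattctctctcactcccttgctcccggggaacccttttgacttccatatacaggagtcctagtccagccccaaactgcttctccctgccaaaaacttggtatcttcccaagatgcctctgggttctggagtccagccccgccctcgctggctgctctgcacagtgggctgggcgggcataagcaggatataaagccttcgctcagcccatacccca
Blvrb, chr7:27447728-27447977, plus strand: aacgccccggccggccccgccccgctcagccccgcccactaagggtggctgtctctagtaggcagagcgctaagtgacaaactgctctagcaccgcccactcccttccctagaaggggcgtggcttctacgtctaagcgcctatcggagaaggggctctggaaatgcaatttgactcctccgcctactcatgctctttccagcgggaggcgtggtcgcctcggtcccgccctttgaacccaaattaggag
Nfe2l2, chr2:75704664-75704913, minus strand: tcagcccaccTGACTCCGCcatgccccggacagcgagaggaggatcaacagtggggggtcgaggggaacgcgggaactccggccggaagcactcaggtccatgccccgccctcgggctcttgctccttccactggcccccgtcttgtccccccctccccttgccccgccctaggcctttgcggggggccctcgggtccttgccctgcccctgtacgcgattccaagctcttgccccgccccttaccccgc
The windows of Nqo1 and Blvrb held no copy of the core. The window of Nfe2l2 held 1 copy, TGACTCCGC, at -240 to -232 from the start.

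With DOM the transcripts of Hmox1, Nqo1 and Blvrb rose, and those of the other 7 genes were not called. Hmox1 was 9.42-fold, Nqo1 3.64-fold and Blvrb 1.80-fold higher than with DMSO. A gene was called when the adjusted p was below 0.05 and the change over 1.5-fold, by limma's moderated test with Benjamini-Hochberg adjustment over all tested probes. Over all genes tested in this comparison 20.5% were called and 9.9% were called higher, so the count of 3 of 10 is given as a description and the genes are taken 1 by 1. With DINCH only Nqo1 was called among the 10 genes, where 8.26% of all genes were called and 4.25% were called higher. With MEHP (1.69% of all genes called), BDB (0% called) and DOS (0% called) none of the 10 was called. At an unadjusted p below 0.05 in the same limma fits, the count was 5 of the 10 with DOM, 4 with MEHP, 3 with DINCH and 1 each with BDB and DOS. The share of all genes tested at that threshold was 47.3% with DOM, 18.9% with MEHP, 30.8% with DINCH, 16.3% with BDB and 6.34% with DOS, so the counts for DOM and DINCH were close to it. The median change of the 10 genes was 0.19 with DOM, 0.06 with MEHP and DINCH, -0.07 with BDB and -0.01 with DOS, beside medians between -0.03 and 0.00 over all genes tested. Every comparison used the same 4 DMSO arrays, so chance deviations of those arrays enter all 5 of them.

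Haem oxygenase 1 rose only with DOM among the 5 compounds at these thresholds. The Hmox1 levels on the DMSO arrays were 4.34, 4.33, 4.34 and 4.52. On the DOM arrays they were 7.84, 7.63, 7.23 and 7.78. Every DOM array lay far above every array of the other groups, and the lowest DOM level was over 2 log2 units above the highest level elsewhere. The change was 3.24 ± 0.14 (log2, SE, n = 4 and 4, limma adjusted p = 1.55e-05). The other Hmox1 probe gave 3.39 ± 0.16 (limma adjusted p = 2.35e-05). Within slides, with 1 or 2 arrays of each group on a slide, the difference was 3.40, 2.89 and 3.26 on slides 1, 2 and 3, and within the shared rows 3.11 on row 2 and 3.37 on row 4.

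The MEHP arrays had Hmox1 levels of 4.86, 4.86, 4.60 and 4.90. All 4 were above all 4 DMSO arrays, yet the change of 0.42 ± 0.09 did not pass the test (limma adjusted p = 0.0583). The second probe gave a value of the same size, 0.41 ± 0.14, with overlapping groups. With DINCH the levels were 4.85, 4.16, 4.20 and 4.41, and replicate 1 stood above the others. The DINCH change was 0.02 ± 0.15 (limma adjusted p = 0.95). BDB gave 4.26, 4.51, 4.14 and 4.61 and DOS 4.20, 4.38 and 4.25, and both groups overlapped DMSO. By mean level the order was DOM (7.62), MEHP (4.80), DINCH (4.41), DMSO (4.38), BDB (4.38) and DOS (4.27). MEHP was also higher than BDB and DOS at limma adjusted p of 0.0455 and 0.0123, with changes of 1.34-fold and 1.44-fold that were below the 1.5-fold limit. The difference of DINCH from MEHP, -0.40 ± 0.16, did not pass (limma adjusted p = 0.119). DINCH, DMSO, BDB and DOS did not differ from their neighbours in this order beyond their spread.

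NAD(P)H quinone dehydrogenase 1, the product of Nqo1, reduces quinones by a transfer of paired electrons that avoids reactive semiquinones. Its transcript rose with DOM and, by less, with DINCH. The Nqo1 levels were 0.09, -0.15, -0.31 and -0.57 with DMSO and 2.03, 1.49, 1.59 and 1.41 with DOM. The DOM group lay above all other groups without overlap, and the change against DMSO was 1.86 ± 0.18 (log2, SE, limma adjusted p = 0.000285). Within slides it was 1.67, 1.82 and 1.98, and within rows 2.17 and 1.56.

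The DINCH arrays had Nqo1 levels of 0.82, 0.50, 0.36 and 0.77, all above DMSO. The change of 0.85 ± 0.16 was 1.80-fold (limma adjusted p = 0.0145), with within-slide differences of 0.73, 0.73 and 1.14. This call was lost without DMSO replicate 3 (limma adjusted p = 0.0507), with dim probes kept in the test (0.106) and with the in-range arrays alone (0.124). MEHP gave 0.60, 0.24, 0.23 and 0.22, again all above DMSO, and the change of 0.56 ± 0.15 did not pass (limma adjusted p = 0.107). BDB gave 0.35, -0.25, -0.26 and -0.03 and DOS 0.26, -0.25 and 0.02, and both overlapped DMSO. The order of the mean levels was DOM (1.63), DINCH (0.61), MEHP (0.32), DOS (0.01), BDB (-0.05) and DMSO (-0.24). Between neighbours, DOM exceeded DINCH by 1.02 ± 0.16 (limma adjusted p = 0.00319). The steps from DINCH to MEHP (0.29 ± 0.13), from MEHP to DOS (0.31 ± 0.15) and from DOS to BDB (0.06 ± 0.18 in size) did not pass the test.

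Of the biliverdin reductases, Blvrb rose with DOM and Blvra was not called. BLVRB also works as a flavin reductase, and BLVRA is the main enzyme that makes bilirubin in the adult. The Blvrb levels were 3.14, 3.50, 3.26 and 3.16 with DMSO and 4.52, 3.73, 3.88 and 4.32 with DOM. The groups did not overlap, although the lowest DOM array was near the highest DMSO array, and DOM replicates 1 and 4 were well above replicates 2 and 3. The change was 0.85 ± 0.18 (log2, SE, limma adjusted p = 0.00763), with within-slide differences of 0.99, 0.50 and 1.16. The call was lost when dim probes were kept in the test (limma adjusted p = 0.0502) and with the in-range arrays alone (0.0752). MEHP arrays were at 3.80, 3.39, 3.69 and 3.60 and DINCH arrays at 3.88, 3.75, 3.48 and 3.47. Neither change passed, at 0.35 ± 0.12 for MEHP (limma adjusted p = 0.178) and 0.38 ± 0.13 for DINCH (0.103). BDB gave 3.41, 3.17, 3.14 and 3.15 and DOS 3.50, 3.30 and 3.38. Blvra lay between 2.39 and 2.60 on the DMSO arrays and between 2.17 and 2.46 on the DOM arrays. Its difference of -0.15 ± 0.10 had an interval from -0.37 to 0.08, and its other probe gave 0.06 ± 0.10.

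**Figure D1:**
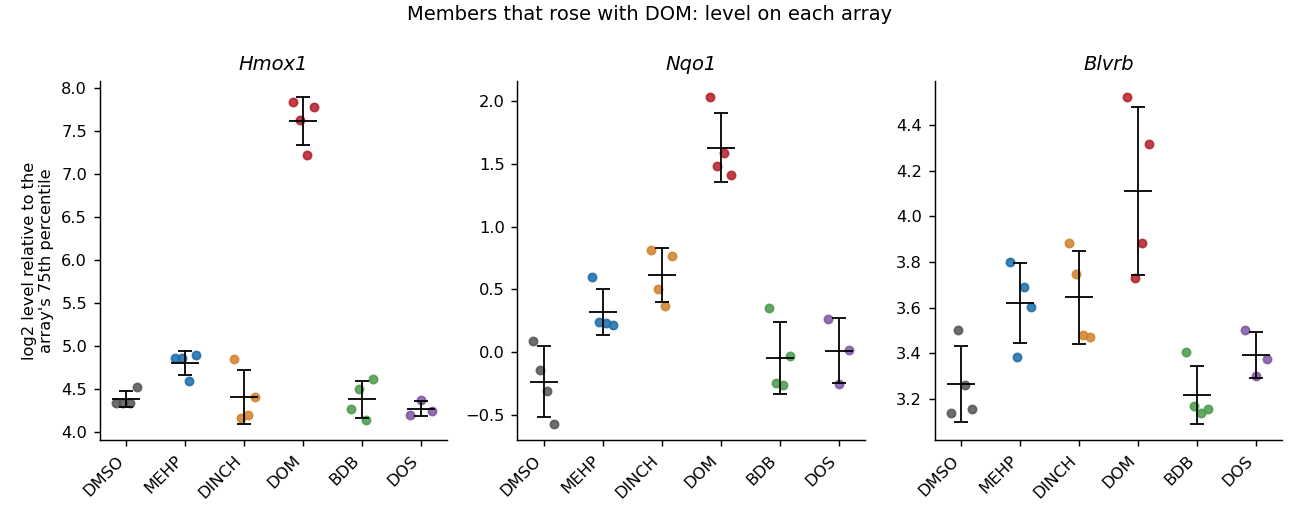
Log2 level of Hmox1, Nqo1 and Blvrb (vertical axis, relative to the 75th percentile of the array, with a scale of its own in each panel) on each array of the 6 groups. Points are arrays, and lines show the mean ± SD (n = 4, DOS n = 3). The 4 DOM arrays of Hmox1 sit between 7.23 and 7.84, above all others, and for Nqo1 the DINCH arrays sit between DMSO and DOM.

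The ferritin transcripts were not called with any of the 5 compounds. Fth1 levels were 9.07, 9.14, 8.81 and 9.27 with DMSO and 9.39, 9.28, 9.01 and 9.43 with DOM. The difference for DOM was 0.20 ± 0.13, with a 95% interval of -0.10 to 0.50 (limma adjusted p = 0.28). Ftl1 levels were 9.12, 9.16, 8.95 and 9.08 with DMSO and 9.17, 9.23, 8.97 and 9.32 with DOM. The difference was 0.10 ± 0.11, with an interval of -0.14 to 0.33 (limma adjusted p = 0.515). A change of 1.5-fold in either direction lay outside both intervals. With DINCH, Ftl1 was at 9.60, 9.29, 9.14 and 9.27, and the change of 0.25 ± 0.12 did not pass (limma adjusted p = 0.221). Over the other comparisons with DMSO the differences of both genes ran from -0.16 to 0.15. Ferritin is known to be controlled largely at translation, through iron regulatory proteins that bind its messenger RNA, and ferritin protein was not measured here. Both genes have near-identical processed copies in the mouse genome, so the source of the signal of their probes is uncertain.

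The transcript of NRF2 itself was lower with DOM and DINCH, by less than the 1.5-fold limit. The Nfe2l2 levels were 4.13, 3.92, 3.84 and 3.88 with DMSO. They were 3.57, 3.66, 3.58 and 3.55 with DOM and 3.31, 3.44, 3.60 and 3.26 with DINCH. All arrays of both compounds lay below all DMSO arrays. The change was -0.35 ± 0.10 with DOM (1.28-fold, limma adjusted p = 0.0214) and -0.54 ± 0.11 with DINCH (1.45-fold, limma adjusted p = 0.0202). Without DINCH replicate 3 the DINCH change was -0.60 and was called (limma adjusted p = 0.0192). BDB arrays, at 3.63, 3.69, 3.72 and 3.81, also all lay below DMSO, with a change of -0.23 ± 0.09 that did not pass (limma adjusted p = 0.303). MEHP gave 3.90, 3.91, 3.57 and 3.54 and DOS 3.71, 3.86 and 3.86. DMSO had the highest mean of the 6 groups (3.94), followed by DOS (3.81), MEHP (3.73), BDB (3.71), DOM (3.59) and DINCH (3.40), and no 2 compounds differed in a test that passed.

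KEAP1, the sensor that holds NRF2 back, had transcript levels of 3.36, 3.27, 3.30 and 2.85 with DMSO. With DOM they were 3.29, 3.60, 3.20 and 3.42, a difference of 0.18 ± 0.14 with an interval from -0.13 to 0.50. The differences with the other 4 compounds ran from -0.18 to 0.19, and none passed.

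Sequestosome 1 (Sqstm1, p62) is an autophagy receptor that also binds KEAP1 and competes with NRF2 for it. Its levels were 4.45, 4.45, 4.45 and 4.85 with DMSO and 4.57, 4.61, 4.40 and 4.79 with DOM, and these groups overlapped (0.05 ± 0.13). The DOS arrays, at 3.92, 4.03 and 3.98, lay below every array of DMSO, DINCH, DOM and BDB. The DOS change was -0.57 ± 0.13 and did not pass (limma adjusted p = 0.376). Its within-slide differences were -0.53 on slide 1 and -0.85 on slide 3, and within rows -0.68 and -0.47. MEHP gave 4.01, 4.18, 4.18 and 4.38, all below DMSO, with a change of -0.36 ± 0.12 that did not pass (limma adjusted p = 0.184). DINCH gave 4.64, 4.11, 4.20 and 4.37 and BDB 4.56, 4.53, 4.22 and 4.55.

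Mafg encodes a small MAF protein that has no activation domain of its own and serves as a partner of NRF2 and of the repressor BACH1. Levels of its brightest probe were 5.23, 4.99, 4.91 and 4.79 with DMSO and 5.52, 5.19, 5.12 and 5.28 with DOM. The 3 probes gave changes of 0.30 ± 0.13, 0.35 ± 0.13 and 0.31 ± 0.11 with DOM, and none passed (limma adjusted p = 0.108, 0.0786 and 0.0505). With MEHP the brightest probe gave 3.96 on replicate 3 and between 4.98 and 5.20 on the other 3 arrays. The low value of MEHP replicate 3 was seen on that probe only, since the other 2 probes read 2.87 and 2.55 on that array and 2.92 to 3.10 and 2.67 to 2.70 on the other MEHP arrays.

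**Figure D2:**
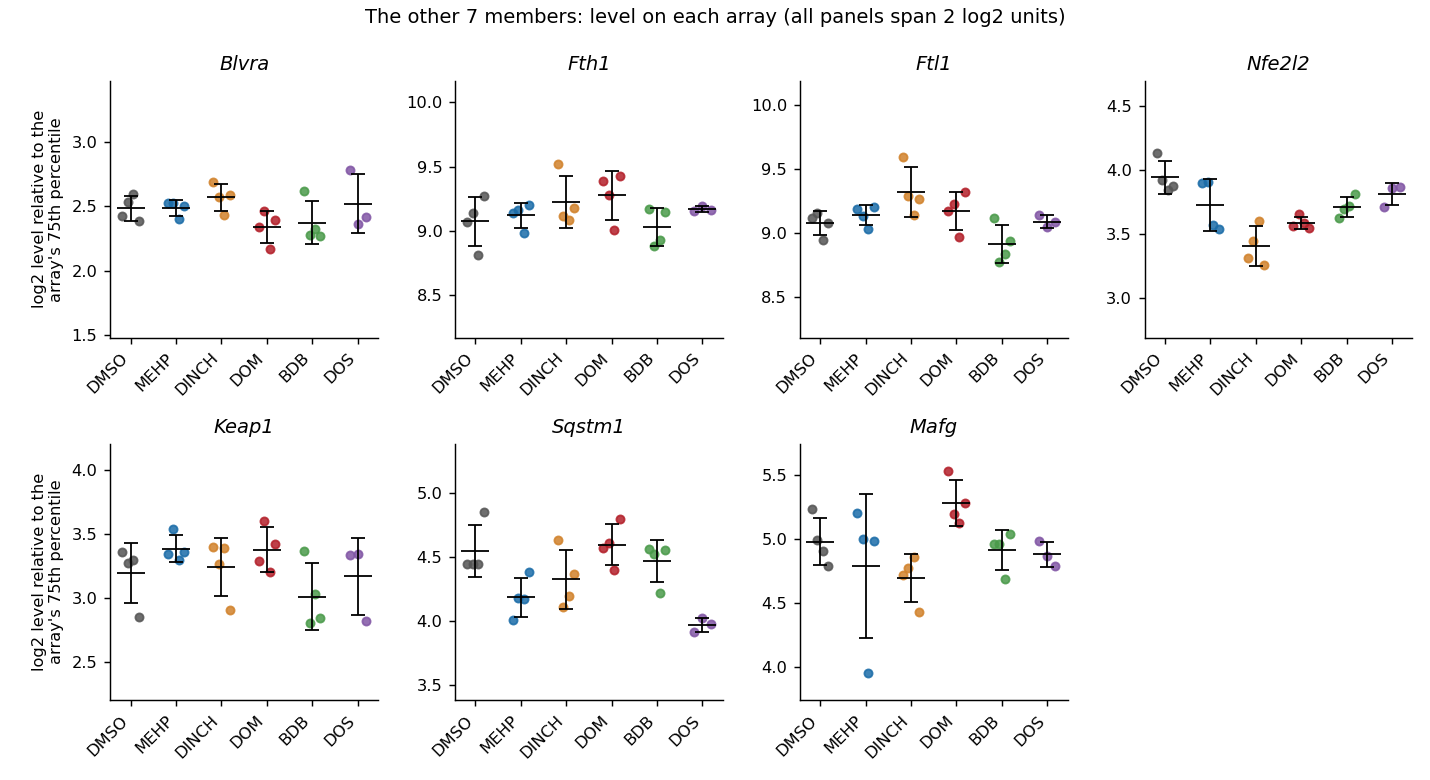
Log2 level of the other 7 genes (vertical axis, relative to the 75th percentile of the array, 2 log2 units in every panel) on each array of the 6 groups. Points are arrays, and lines show the mean ± SD (n = 4, DOS n = 3). Nfe2l2 is highest with DMSO and lowest with DINCH, the 3 DOS arrays of Sqstm1 sit between 3.92 and 4.03, and 1 MEHP array of Mafg sits apart at 3.96.

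The groups of DOM and DMSO did not overlap for 4 of the 10 genes, the 3 that rose and Nfe2l2, where 39.4% of all genes tested had groups that did not overlap. The corresponding counts were 3 for MEHP (14.4% of all genes), 2 for DINCH (24%), 1 for BDB (12%) and 1 for DOS (8.14%).

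All compounds were given at the same dose for the same time, and the 10 pairs of compounds were compared with p-values adjusted over the tested probes of all 10 pairs together. These adjusted p-values are not on the scale of those against DMSO, which were adjusted within each comparison. DOM and DOS shared slide rows, as did MEHP, DINCH and BDB. In pairs of DOM or DOS with MEHP, DINCH or BDB, the row cannot be told apart from the compound. DOM and DOS, which share the octyl diester form and differ in the double bond, differed in 4 of the 10 genes, with DOM the higher in each. Over all genes 14.7% were called between DOM and DOS and 6.88% were called higher with DOM. Hmox1 was 10.2-fold higher with DOM than with DOS (3.35 ± 0.16, limma adjusted p = 7.82e-05). Nqo1 was 3.07-fold higher (1.62 ± 0.18, limma adjusted p = 0.00104). Sqstm1 was 1.54-fold higher (0.62 ± 0.12, limma adjusted p = 0.0102), where against DMSO it was 0.05 ± 0.13 with DOM and -0.57 ± 0.13 with DOS. Blvrb was 1.65-fold higher (0.72 ± 0.19, limma adjusted p = 0.0402).

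The calls of Hmox1 and Nqo1 between DOM and DOS held in all 20 alternative settings tried, whereas Blvrb lost its call in 10 and Sqstm1 in 3 of them. Without DOM replicate 4, both Blvrb (0.65, limma adjusted p = 0.0867) and Sqstm1 (0.56) were no longer called. For the other 6 genes the differences between DOM and DOS did not pass. The intervals were -0.18 to 0.39 for Fth1, -0.18 to 0.35 for Ftl1, -0.50 to 0.13 for Blvra, -0.17 to 0.58 for Keap1, -0.45 to 0.00 for Nfe2l2 and 0.11 to 0.69 for Mafg. The groups did not overlap for 6 genes, the 4 called and Mafg and Nfe2l2, where 38.6% of all genes tested had groups that did not overlap.

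DOM was also higher than BDB in 3 of the 10 genes (26.1% of all genes called, 14.1% called higher), namely Hmox1 (3.24 ± 0.16), Nqo1 (1.68 ± 0.18) and Blvrb (0.89 ± 0.17). The Blvrb call was lost when dim probes were kept in the test (limma adjusted p = 0.0667) and with the in-range arrays alone (0.104). DOM was higher than MEHP (18.6% of all genes called, 9.05% higher) in Hmox1 (2.82 ± 0.14) and Nqo1 (1.31 ± 0.15), and higher than DINCH (22.2% called, 11.1% higher) in Hmox1 (3.21 ± 0.19) and Nqo1 (1.02 ± 0.16). Blvrb did not pass between DOM and MEHP (0.49 ± 0.18, limma adjusted p = 0.102) or DINCH (0.47 ± 0.19, limma adjusted p = 0.125). Mafg was higher with DOM than with DINCH by just under the 1.5-fold limit (0.58 ± 0.13, limma adjusted p = 0.0173), and it passed the limit in 8 alternative settings. Nqo1 was higher with DINCH than with BDB (0.66 ± 0.16, limma adjusted p = 0.0232, 9.94% of all genes called, 5.43% higher) and DOS (0.60 ± 0.17, limma adjusted p = 0.0405, 5.9% called, 2.86% higher). These calls were lost in 8 of 21 and 9 of 19 alternative settings, among them normexp background correction, detection on 1 array and several fits without 1 array. None of the 10 genes was called between MEHP and BDB (3.22% of all genes called), MEHP and DOS (1.44%), DINCH and MEHP (3.48%) or BDB and DOS (2.25%). At an unadjusted p below 0.05 in limma they numbered 6, 1, 2 and 1, beside 27.1%, 12.9%, 21.9% and 17.2% of all genes tested. Between BDB and DOS, Sqstm1 differed by 0.49 ± 0.11 (limma adjusted p = 0.0208), which is 1.41-fold and under the limit. Its unadjusted limma p was 0.00195, beside 0.00187 for DOS against DMSO, where the adjusted p was 0.376.

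**Figure D3:**
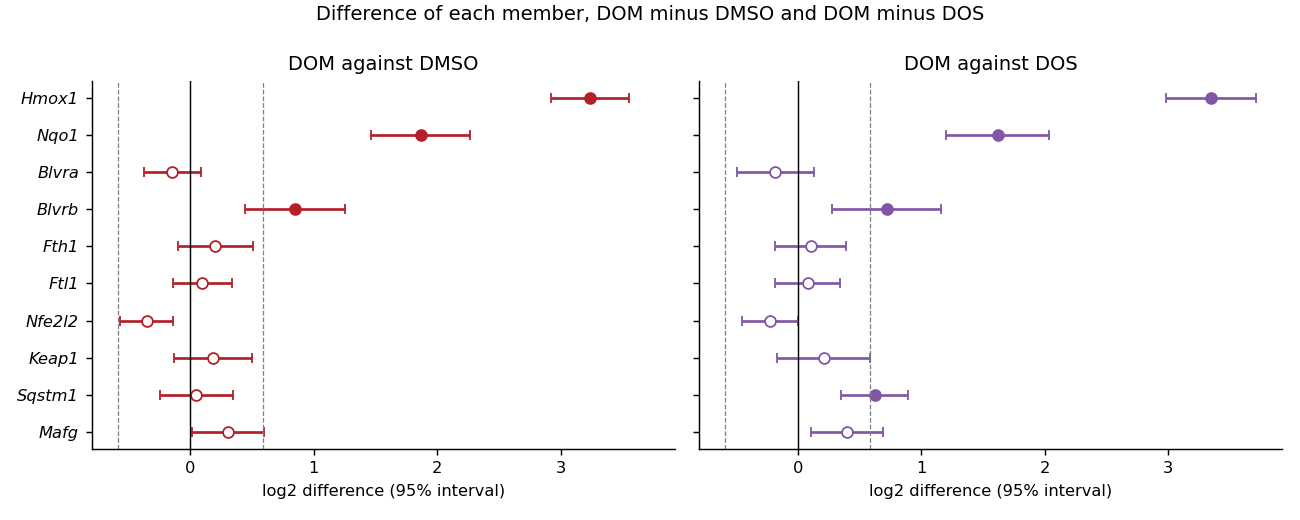
Log2 difference of the 10 genes (horizontal axis) for DOM minus DMSO (left) and DOM minus DOS (right), with 95% intervals from the limma fit. Filled points were called, and dashed lines mark a 1.5-fold change. Hmox1 (3.24 and 3.35) and Nqo1 (1.86 and 1.62) stand apart from the other genes in both panels, and Sqstm1 is called only on the right.

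Other genes under NRF2 control were taken from a list of 24 known targets without the 10 genes above, and all 24 were tested. This list and those below were chosen with earlier results of these data known. Their counts are therefore given as descriptions and are no independent test. With DOM 12 were called and all 12 were higher, beside 9.9% called higher over all genes. The median change of all 24 was 0.54, and 20 of them were above 0. The median over all genes tested was -0.03. Gsta4, a glutathione transferase that acts on the lipid aldehyde 4-hydroxynonenal, was 6.82-fold higher (2.77 ± 0.28, limma adjusted p = 0.000355). Gstm1, a further glutathione transferase, was 4.09-fold higher (2.03 ± 0.19, limma adjusted p = 0.000285). Aox1, an aldehyde oxidase, was 2.96-fold higher (1.57 ± 0.18, limma adjusted p = 0.000572). Its signal was dim in both groups, at mean levels of -3.60 with DMSO and -2.03 with DOM. The other 9 called, with brightest-probe changes from 0.56 to 1.39, were Pgd, Osgin1, Srxn1, Gclm, Ephx1, Abcc1, Me1, Aldh3a1 and Cat. For Cat the call came from another probe (0.71), and for Aldh3a1 another probe gave a change of 3.72 against 0.62 on the brightest. Slc7a11, the cystine importer, did not pass with DOM (-0.19 ± 0.21).

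With DINCH the same list had 2 genes called higher and 3 lower, beside 8.26% called over all genes, with a median of -0.01. Gsta4 (0.79 ± 0.17, limma adjusted p = 0.0234) and Gstm1 (0.70 ± 0.14, limma adjusted p = 0.018) rose beside Nqo1. Slc7a11 fell by 1.60 ± 0.31 (limma adjusted p = 0.0147) and Abcc4, an efflux pump, fell by 0.64 ± 0.11. Aldh3a1 was called lower on another probe (-1.13), while its brightest probe gave 0.21. With MEHP, BDB and DOS 0 of the 24 were called by limma, with medians of 0.18, -0.10 and -0.02. At an unadjusted p below 0.05 their brightest probes numbered 10, 6 and 2 in these comparisons, beside 18.9%, 16.3% and 6.34% of all genes tested.

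In a list of 25 genes of iron and haem handling, 22 were tested, and with DOM 4 were called higher and 1 lower. These 5 of 22 are close to the 20.5% called over all genes, so the genes are given 1 by 1. Slc40a1 encodes ferroportin, the exporter of cellular iron, and its transcript was 9.61-fold higher with DOM (3.26 ± 0.30, limma adjusted p = 0.000254). Its levels ran from -1.92 to -0.35 with DMSO and from 1.74 to 2.51 with DOM, without overlap. Slc48a1, a transporter that brings haem into the cytosol, was 2.08-fold higher (1.06 ± 0.12, limma adjusted p = 0.000551). The other 2 that rose were the haem-binding protein gene Hebp1 (0.98 ± 0.27) and Alas1, which catalyses the first step of haem synthesis (0.82 ± 0.11). Cpox, an enzyme late in haem synthesis, fell by 1.99 ± 0.21 (limma adjusted p = 0.000362). Hmox2, the constitutive haem oxygenase, was not called with any compound.

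The transferrin receptor Tfrc, which imports iron, fell by 1.15 ± 0.14 with DINCH (limma adjusted p = 0.00363) and by 0.81 ± 0.14 with MEHP (limma adjusted p = 0.0312). With DOM it was 0.54 ± 0.14 higher, under the 1.5-fold limit (limma adjusted p = 0.0194). The Tfrc change with BDB was -0.67 ± 0.22 and did not pass (limma adjusted p = 0.21). DINCH, MEHP and BDB lay on other slide rows than DMSO, so row and compound cannot be told apart here. Mean Tfrc levels were -0.32 with DMSO and -0.56 with DOS, which shared its rows. Uros, an enzyme of haem synthesis, fell by 1.08 ± 0.13 with DINCH (limma adjusted p = 0.00363) and by 0.68 ± 0.11 with MEHP (limma adjusted p = 0.0224). Its change of -0.36 ± 0.19 with BDB did not pass (limma adjusted p = 0.438). Hebp1 rose with DINCH (1.01 ± 0.19, limma adjusted p = 0.0135). These were the only called genes of the list with DINCH (3 of 22, beside 8.26% of all genes) and MEHP (2 of 22, beside 1.69%). Both MEHP calls were lost without a filter on dim probes, with detection on 1 array, with the in-range arrays alone and in 5 of the 8 fits that left out 1 array. With BDB and DOS 0 of the list were called by limma, and 4 and 2 had an unadjusted p below 0.05. These are 18.2% and 9.09% of the 22, close to the 16.3% and 6.34% of all genes tested. The medians of the 22 genes were -0.04 with MEHP, -0.02 with DINCH, -0.11 with DOM, -0.14 with BDB and -0.03 with DOS.

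Of 15 other partners and regulators of NRF2, 13 were tested, and with DOM 3 were called higher, beside 9.9% called higher and 20.5% called over all genes. Bach1, the repressor that competes with NRF2 at its elements and is released by haem, was 1.66-fold higher (0.73 ± 0.18, limma adjusted p = 0.0129). Btrc, the receptor of a further ubiquitin ligase for NRF2, was 1.51-fold higher (0.60 ± 0.15, limma adjusted p = 0.0173). Gsk3b was called on 1 probe (0.94), while its brightest gave 0.25 ± 0.11. With DINCH Bach1 was 0.37 ± 0.10 higher, under the limit (limma adjusted p = 0.0404), and 0 genes of this list were called by limma with MEHP, DINCH, BDB or DOS (4, 3, 5 and 0 at an unadjusted p below 0.05, where the shares of all genes were 18.9%, 30.8%, 16.3% and 6.34%). Of 9 autophagy receptors and LC3 proteins related to the role of Sqstm1, 8 were tested and 0 were called by limma with any compound, and at an unadjusted p below 0.05 there were 3 with DOM, 2 with BDB and 1 each with MEHP and DINCH, where the shares of all genes were 47.3%, 16.3%, 18.9% and 30.8%. The median of these 8 was 0.27 with DOM (6 above 0) and -0.15 with BDB (0 above 0). It was 0.05 with DINCH and -0.03 with MEHP and with DOS. Over all genes tested the median was -0.03 with DOM and with BDB.

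**Figure D4:**
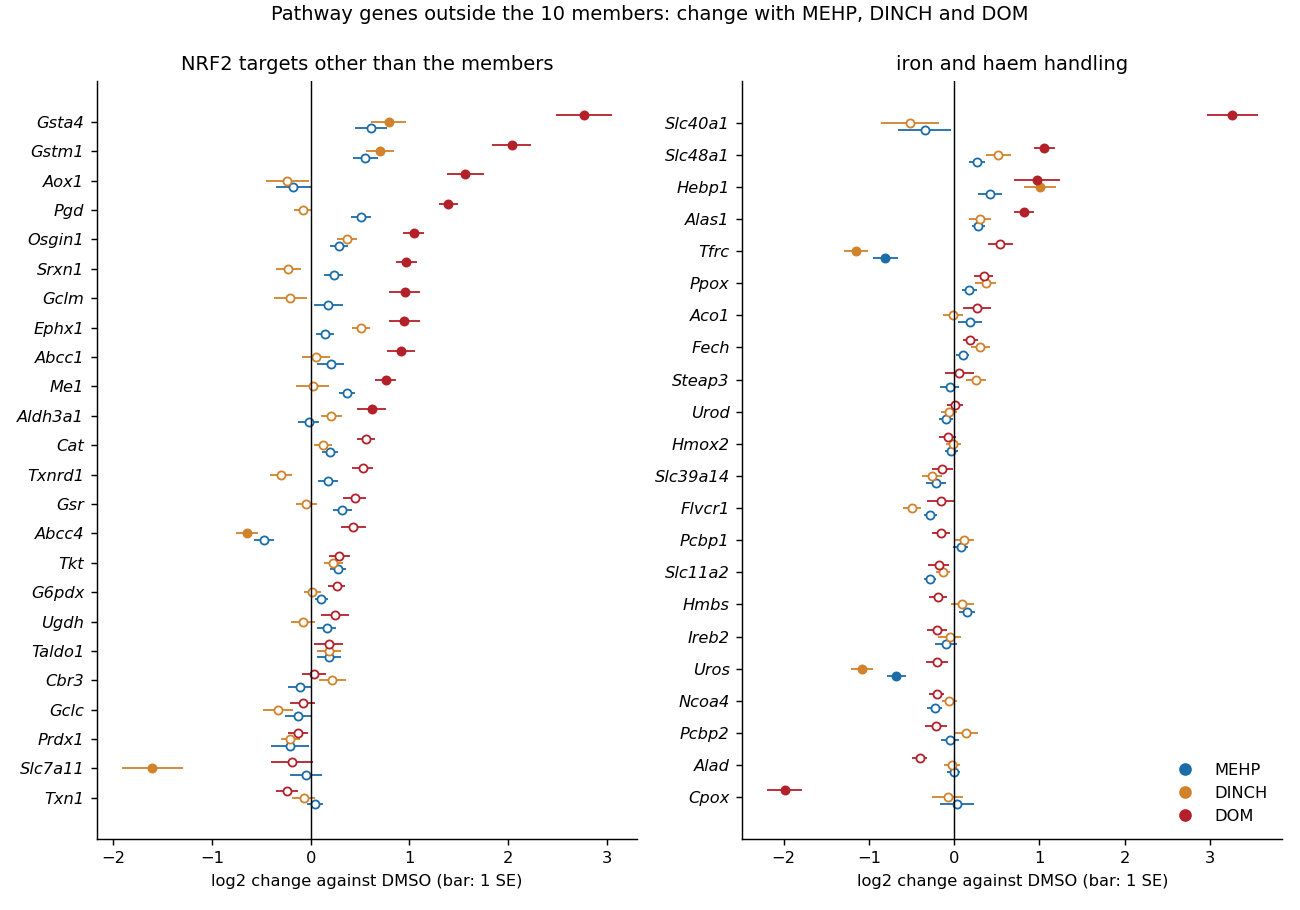
Log2 change against DMSO (horizontal axis, bar 1 SE) of the brightest probe of each tested NRF2 target (left) and iron or haem gene (right) for MEHP, DINCH and DOM. Filled points mark a brightest probe that was called. With DOM, Gsta4 (2.77), Gstm1 (2.03) and Slc40a1 (3.26) lie far to the right and Cpox (-1.99) to the left, whereas Slc7a11 (-1.60) and Tfrc (-1.15) lie to the left with DINCH.

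Over the 23 arrays and 12165 genes, the genes whose levels were most like those of Hmox1 by Pearson's r were Tmc6 (0.955), Apbb2 (0.954), Slc46a1 (0.952), Tcn2 (0.951) and Slc43a2 (0.945). Those most like Nqo1 were Zdhhc9 (0.918), Cst6 (0.915), Ndrg2 (0.915), Osgin1 (0.907) and Inafm1 (0.906). Among the 10 genes, Blvrb ranked at 23 (r = 0.875) and Hmox1 at 42 (r = 0.859) in likeness to Nqo1, and Nqo1 ranked at 209 and Blvrb at 711 (r = 0.767) in likeness to Hmox1. These correlations are descriptions over arrays that share groups, and the 4 DOM arrays stand apart from the rest for both genes. With the group means removed, Hmox1 and Nqo1 had r = 0.14 over the 23 arrays and Nqo1 and Blvrb r = 0.51. The ferritin chains moved together from array to array within groups (r = 0.86), and Hmox1 had r = 0.75 with Fth1 and r = 0.74 with Sqstm1. These deviations also share the scaling of each array, and the part of that scaling in them was not tested.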

How the data were processed

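RNA of 23 TM4 cultures was labelled with Cy3 and hybridized to 1-colour Agilent arrays. The authors scanned the arrays and extracted intensities with Feature Extraction 11.5.1.1. Its background subtraction and detrending had been applied to the linear intensities they deposited, with no scaling across arrays. A further DOS array was left out by the authors for high background. A deposited table holds the authors' log2 values after a 75th percentile shift and centring of each probe on its median, and served as an alternative. Its columns matched their own arrays at r of 0.9996 or more (0.407 or less for others), and column medians ran from -0.36 to 0.18.

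Here processed intensities (floor 1) were taken to log2 and the 75th percentile of each array was subtracted. Outlier spots were dropped before replicate spots were averaged. RefSeq accessions gave names to 26582 probes, and the 29099 without a match were tested unnamed. To be tested, a probe had to exceed background clearly and reach the 20th percentile on all arrays of 1 of the groups compared. Each comparison used only its own groups, in limma 3.58.1 (R 4.3.3, data.table, version 1.17.8). Genes were called through any probe (adjusted p below 0.05 and over 1.5-fold), and values are those of the brightest probe. Intervals are 95%. Figures used Python 3.11.15 and matplotlib 3.10.9. Arrays correlated at 0.980 to 0.990 within groups and 0.976 to 0.992 between groups.

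The 10 genes and the pathway lists were chosen with earlier results of these data known. The text names the 10 genes, up to 3 called genes with the largest change per list and compound, the 5 genes most like Hmox1 and Nqo1 each, and cell type markers. Further list genes, and values of list genes where they were not called, were added after their values were seen.

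Groups share replicate numbers. For each number, the deviation of the compound's array from its group mean was correlated with that of the DMSO array. All pairs were above 0.1 for DINCH (0.17 to 0.50, 4 pairs), BDB (0.25 to 0.43, 4 pairs) and DOS (0.20 to 0.45, 3 pairs). For MEHP (-0.14 to 0.45) and DOM (0.04 to 0.43) not all were. The labels do not say whether a number marks a shared culture. The main fits did not pair arrays, for any compound. The replicate number entered only as a block in 1 of the alternatives, for every comparison. Alternatives were quantile normalization, normexp background correction (offset 50), dim probes kept, a looser filter (detection on 1 array), slide, row or replicate as a block, all groups in 1 fit, a variance trend, outlier spots kept, the authors' values and leaving out each array. The steps were tested on simulated data.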

Additional observations from a re-analysis of the deposited data

Results flagged for a closer look

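In 50 sets of a gene and a group of 4 arrays, 7 had 1 array whose gap to the nearest of the others was large for the range of its group by Dixon's test, where chance gives about 1 in 20. DMSO replicate 4 was high for Hmox1 (4.52) and for Sqstm1 (4.85). BDB replicate 1 was high for Blvra (2.62) and Blvrb (3.41), and BDB replicate 3 was low for Sqstm1 (4.22). MEHP replicate 3 was low for Hmox1 (4.60), and MEHP replicate 1 was high for Nqo1 (0.60). In some of these groups the other arrays lay close together, as with Sqstm1 at 4.45 on 3 DMSO arrays. DOS, with 3 arrays, was not tested.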

How the results depend on the processing

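Hmox1 and Nqo1 stayed called with DOM against DMSO in all 21 alternatives, at changes of 3.16 to 3.45 and 1.64 to 1.97, and Blvrb ran from 0.71 to 0.97 and lost its call in 2. No called change of the 10 genes turned its direction. Without a filter on dim probes, genes called among the 10 numbered 0 for DINCH against DMSO, 2 for DOM against DOS, 0 for DINCH against DOS and 0 for DINCH against BDB, and list genes called 0 for MEHP and 2 for DINCH. Among in-range arrays alone, an alternative chosen after seeing the data, the counts were 0 for DINCH, 2 for DOM against DOS, 0 for DINCH against DOS, 0 for DINCH against BDB, 1 for DOM against DINCH, 1 for MEHP against DOS and 1 for BDB against DOS, and 0 list genes for MEHP and 0 for DINCH, where fewer arrays entered. Normexp gave 0 for DINCH against DOS and DINCH against BDB, 1 for MEHP against DOS and 1 list gene for MEHP. A filter asking for detection on 1 array gave 0 for DINCH against DOS and DINCH against BDB and 0 list genes for MEHP. The slide as a block gave 1 for MEHP against DOS (Hmox1), 1 for BDB against DOS (Sqstm1) and 1 list gene for BDB, as did all groups in 1 fit and a variance trend for BDB (1 each). Apart from the smaller number of arrays, the cause of these shifts was not tested. Leaving out 1 array at a time gave, of the 10 genes, 3 to 3 for DOM, 0 to 2 for DINCH, 0 to 0 for MEHP, BDB and DOS, 2 to 4 for DOM against DOS, 0 to 1 for DINCH against DOS, MEHP against DOS and DINCH against BDB, and 2 to 3 for DOM against DINCH, and of the list genes 0 to 2 for MEHP (main count 2), 5 to 9 for DINCH (8) and 18 to 23 for DOM (20). The lowest counts came without DMSO replicate 3 (DINCH) and without DOM replicate 4 (DOM against DOS). With the replicate number as a block the counts of the 10 genes were 0 for MEHP, 1 for DINCH, 3 for DOM and 4 for DOM against DOS, and it changed no other call count by over 1.5 times.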
